A study of Mus musculus with 4 samples.

Results

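Macrophages from the spleen and the bone marrow (BM) of leukaemic mice were compared by small RNA sequencing, and the difference between the 2 tissues was set beside the same difference in normal mice. The comparison uses 2 of the 4 libraries of the series, AML spleen and AML BM, with normal spleen and normal BM as the reference. A microRNA (miRNA) entered the comparison when it had at least 30 reads in the larger of the AML libraries, which held for 211 of the 847 miRNAs in the table. The AML mice were C57BL/6J animals that received GFP+ MLL-AF9 leukaemia cells, taken from leukaemic mice, at 6 to 8 weeks of age and without irradiation. MLL-AF9 is a fusion oncogene that drives acute myeloid leukaemia (AML). Macrophages were sorted on day 18, in a model where mice survived for 35 to 40 days. The normal libraries came from C57BL/6J mice of the same stated age without this disease label. The recipients' own blood formation was thus not removed by irradiation, and its state on day 18 was not measured here. The sources used here do not state the sort markers, how many mice each library holds, or whether 1 mouse gave both tissues.

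A miRNA guides silencing complexes to messenger RNAs mainly through its seed, the bases 2 to 8 counted from its 5′ end, and both arms (5p and 3p) of its hairpin precursor can give a mature strand. Macrophages of spleen and BM arise in tissues with different neighbours: splenic macrophages clear ageing red cells and lie among B and T cells, whereas BM macrophages support developing red cells and myeloid progenitors. Some miRNAs are known for their cell type, among them miR-223 in myeloid cells, miR-142 in all blood cells, miR-150 in mature lymphocytes, miR-451a in red cells, miR-126 in endothelium and miR-143 in smooth muscle and stroma.

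The sequences below are those of the miRNAs on which the tissue comparison turns, with the seed in capitals. Mature sequences were found in RefSeq (GRCm38.p6) by name for 178 of the 211 miRNAs. The first set was higher in AML spleen and in normal spleen than in the matching BM.
miR-342-3p: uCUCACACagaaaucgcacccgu
miR-142a-3p: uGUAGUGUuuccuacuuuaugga
miR-150-3p: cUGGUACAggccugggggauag
miR-28a-5p: aAGGAGCUcacagucuauugag
miR-28a-3p: cACUAGAUugugagcugcugga
The next set was lower in both spleens than in the matching BM, and miR-125a-5p and miR-351-5p of this set share a seed.
miR-196b-5p: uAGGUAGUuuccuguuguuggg
miR-223-5p: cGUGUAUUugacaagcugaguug
miR-139-3p: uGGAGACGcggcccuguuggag
miR-125a-5p: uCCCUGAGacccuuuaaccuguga
miR-351-5p: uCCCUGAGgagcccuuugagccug
The last set shows 3 seed families whose members had different tissue ratios in AML.
miR-181a-5p: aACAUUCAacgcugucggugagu
miR-181b-5p: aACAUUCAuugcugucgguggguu
miR-181d-5p: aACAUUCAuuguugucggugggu
miR-146a-5p: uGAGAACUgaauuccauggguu
miR-146b-5p: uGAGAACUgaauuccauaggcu
miR-92a-3p: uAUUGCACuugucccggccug
miR-25-3p: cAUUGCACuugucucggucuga
miR-363-3p: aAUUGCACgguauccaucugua

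Total counts were 180227 in AML spleen, 271209 in AML BM, 435492 in normal spleen and 206652 in normal BM. The 211 miRNAs compared held 99.0% of the AML spleen reads and 99.2% of the AML BM reads. Levels are given as CPM, counts scaled to 1000000 per library after TMM scaling, and ratios are log2 values of spleen over BM, each followed in square brackets by its 95% exact conditional interval. A miRNA was called higher or lower in spleen when the ratio was at least 2-fold and the interval excluded equality. Each group had 1 library, so intervals cover counting error only, and no ratio could be checked against replicates. As a check of the cell label, the myeloid miR-223-3p had 4 counts in AML spleen, 12 in AML BM, 28 in normal spleen and 10 in normal BM, which is thin in each of them.

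Tissue differences were fewer and smaller in the AML pair than in the normal pair. Of the 211 miRNAs, 74 (35.1%) were called, 29 higher in AML spleen (13.7%) and 45 lower (21.3%). In the normal pair 155 of 234 miRNAs (66.2%) were called, 72 higher in spleen (30.8%) and 83 lower (35.5%). The median absolute log2 ratio was 0.68 in the AML pair and 1.59 in the normal pair. A 4-fold difference or more was called for 23 miRNAs in the AML pair and 97 in the normal pair. The called miRNAs of the AML pair held 9.93% of the AML spleen reads and 11.1% of the AML BM reads.

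Most of the abundant miRNAs lay within 2-fold between the AML tissues. The most abundant in AML spleen, miR-423-5p, had 22182 counts there and 18071 in AML BM, with a ratio of 0.84 [0.81 to 0.86] in log2. In AML BM miR-92a-3p came first, with 26906 counts against 11737 in AML spleen and a ratio of -0.66 [-0.69 to -0.63] in log2. The ratio was near equality for miR-423-3p (-0.01), miR-328-3p (-0.01) and miR-181a-5p (-0.14). Among the 10 most abundant miRNAs of either AML library, miR-151-3p was called higher in spleen and let-7i-5p lower.

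Of the miRNAs compared in both pairs, 124 were called in the normal pair, and 28 of these (22.6%) were called in the same direction in the AML pair. A further 86 (69.4%) lay within the call limits in the AML pair and 10 (8.06%) were called in the opposite direction. From the other side, 62 of the 199 miRNAs compared in both pairs were called in the AML pair, so the 28 made up 45.2% of them. Of the remaining AML calls, 24 (38.7%) concerned miRNAs not called in normal tissue. A further 12 AML calls concerned miRNAs under 30 counts in both normal libraries. In either direction, 35.1% of all miRNAs were called in the AML pair and 66.2% in the normal pair. Those shares count both directions and are not matched to the same-direction 22.6% and 45.2%. By direction, 24 of the 199 miRNAs (12.1%) were higher and 38 (19.1%) lower in AML spleen. In normal spleen 56 of them were higher and 68 lower. The 2 pairs share no library, and their ratios had Pearson's r of 0.32 and Spearman's rho of 0.29 across the 199 miRNAs, which share libraries and depth within a pair and are not independent.

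**Figure D1:**
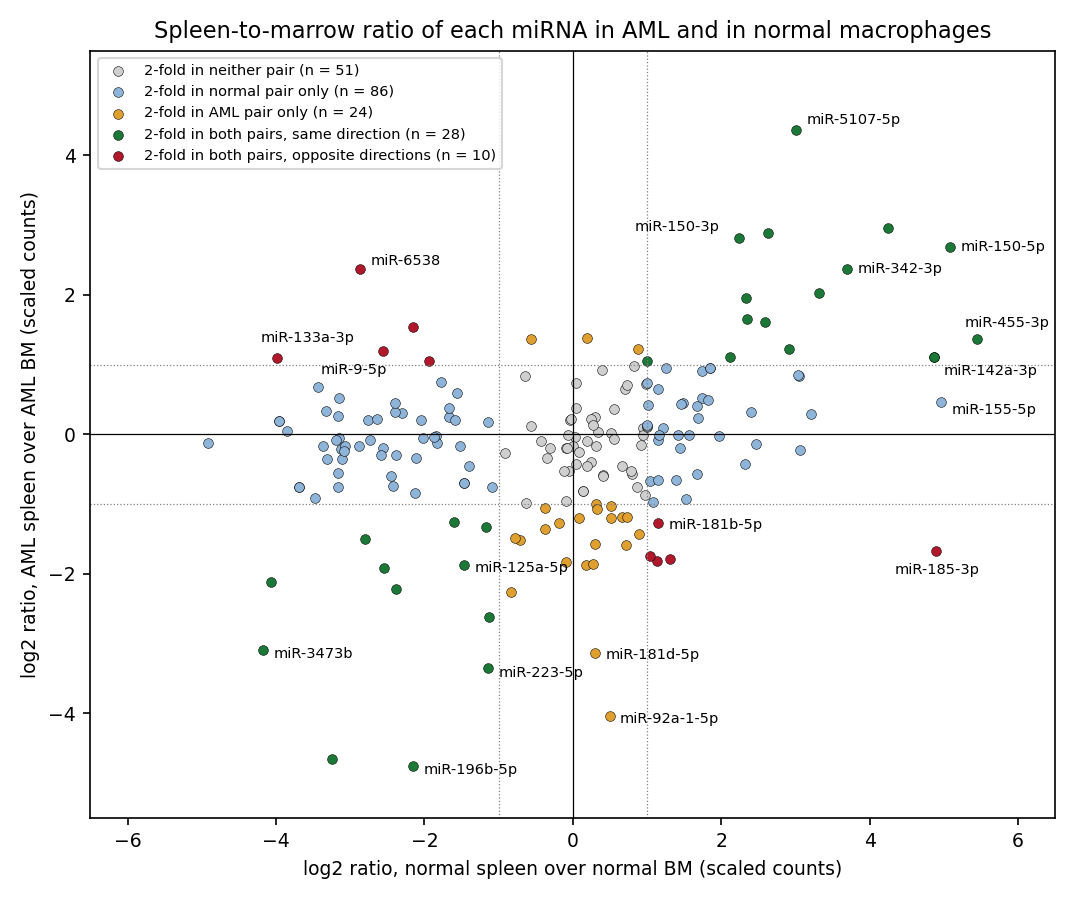
Each point is 1 of the 199 miRNAs compared in both pairs, with the log2 spleen-to-BM ratio in normal mice on the x axis and in AML mice on the y axis, and dotted lines at 2-fold. The 86 miRNAs called in the normal pair only lie between -0.97 and 0.95 on the AML axis. That band follows from the call limits that define the class. Another 28 keep their direction and 10 lie in the opposite quadrants.

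Where the larger AML count was 100 or more, the spleen-high differences that remained in AML were led by miR-5107-5p, both arms of miR-150 and miR-342-3p. Of 56 miRNAs higher in normal spleen, 16 (28.6%) were also higher in AML spleen, against 12.1% of the 199 miRNAs compared in both pairs and 13.7% of all 211. Their ratio was smaller in AML than in normal tissue for 12 of the 16. One of the 16, miR-142b, repeats the counts of miR-142a-3p.

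The highest ratio belonged to miR-5107-5p, which had 537 counts in AML spleen, 38 in AML BM, 563 in normal spleen and 37 in normal BM. It was high in both spleen libraries and low in both BM libraries. The AML log2 ratio was 4.36 [3.88 to 4.88], a 20.5-fold difference, beside 3.01 in normal tissue. The hairpin lies on chr18:60812076-60812163 (GRCm38, plus strand) and overlaps an exon of Cd74, the gene of the MHC class II invariant chain, in GENCODE M21. Its reads cannot be told apart from fragments of Cd74 transcripts in these counts.

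The lymphocyte miRNA miR-150-5p, known to restrain MYB, had 1676 counts in AML spleen, 379 in AML BM, 9910 in normal spleen and 154 in normal BM. Its level was thus 8687 CPM in AML spleen and 1352 CPM in AML BM, with both AML libraries between the normal ones. The log2 ratio was 2.68 [2.52 to 2.85] in AML against 5.09 in normal tissue. From the 3p arm, miR-150-3p reached 2493 CPM in AML spleen and 353 CPM in AML BM. Its log2 ratio of 2.82 [2.51 to 3.15] was not below that of normal tissue (2.24). For miR-342-3p, hosted in an intron of Evl at chr12:108658680-108658702, the levels were 627 and 121 CPM and the log2 ratio was 2.37 [1.81 to 2.96]. In normal tissue miR-342-3p stood at 3.70. Its partner arm miR-342-5p made up 85.8% of both arms' reads in AML spleen and 94.3% in AML BM. That arm stood at 0.92 in AML and was neither higher nor lower by the call limits in AML or in normal tissue. A lower content of a cell type and less of a miRNA in each cell cannot be told apart in these sorted bulk libraries.

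The lymphocyte list as a whole had 7 members compared, of which 3 were higher in AML spleen, 2 lower and 2 neither, where 13.7% of all miRNAs were higher, 21.3% lower and 64.9% neither. Its median log2 ratio was 0.92, against -0.12 over all 211 miRNAs. In normal tissue 5 of 7 were higher and none lower, beside 30.8% and 35.5% of all miRNAs. The summed reads of its 9 members in the table made up 5.38% of the AML spleen library and 4.67% of AML BM, against 9.89% and 1.91% in normal spleen and BM. Most of the AML reads were of 1 member, miR-181a-5p, with 6378 of 180227 counts in AML spleen and 10240 of 271209 in AML BM. The AML sums thus mainly follow that member, whose log2 ratio was -0.14, and not miR-150 or miR-342-3p. None of the 9 was at 0 in an AML library. The part that lymphocyte RNA had in the miR-150 and miR-342-3p ratios was not tested.

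The haematopoietic miR-142a-3p had 253 counts in AML spleen, 170 in AML BM, 1704 in normal spleen and 31 in normal BM. Both AML levels, 1311 CPM in spleen and 606 CPM in BM, lay between the normal ones. The log2 ratio was 1.11 [0.83 to 1.40] in AML and 4.86 in normal tissue. Its partner arm miR-142a-5p stood at 0.84 [0.54 to 1.14], just under the limit. A similar narrowing appeared for miR-455-3p, from an intron of Col27a1, with 129 and 73 counts in AML spleen and BM and 414 and 5 in normal spleen and BM. Its log2 ratio was 1.36 in AML and 5.45 in normal tissue. The partner arm miR-455-5p stood at -0.09 in AML. That arm made up 98.0% of both arms' reads in normal BM and 14.1% in normal spleen, against 77.6% in AML BM and 56.0% in AML spleen.

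Both arms of miR-28a and the 3p arm of miR-151 also kept a higher level in spleen. The miR-28a arms, from an intron of Lpp at chr16:24827868-24827929, were higher in AML spleen. The log2 ratio was 1.65 [0.81 to 2.55] for miR-28a-5p and 2.03 [1.18 to 2.95] for miR-28a-3p, from 39 against 18 and 45 against 16 counts. The abundant miR-151-3p stood at 21432 CPM in AML spleen and 7011 CPM in AML BM, a log2 ratio of 1.61 [1.53 to 1.69], with 20536 CPM in normal spleen and 3409 CPM in normal BM. Its spleen levels were close to each other, and the AML BM level was above that of normal BM. The other kept miRNAs were miR-935 (2.95), miR-3470a (2.89), miR-574-3p (1.95), miR-339-5p (1.22), miR-484 (1.10) and miR-185-5p (1.05). Of these, miR-935 rests on 32 and 6 counts and miR-3470a on 51 and 10.

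**Figure D2:**
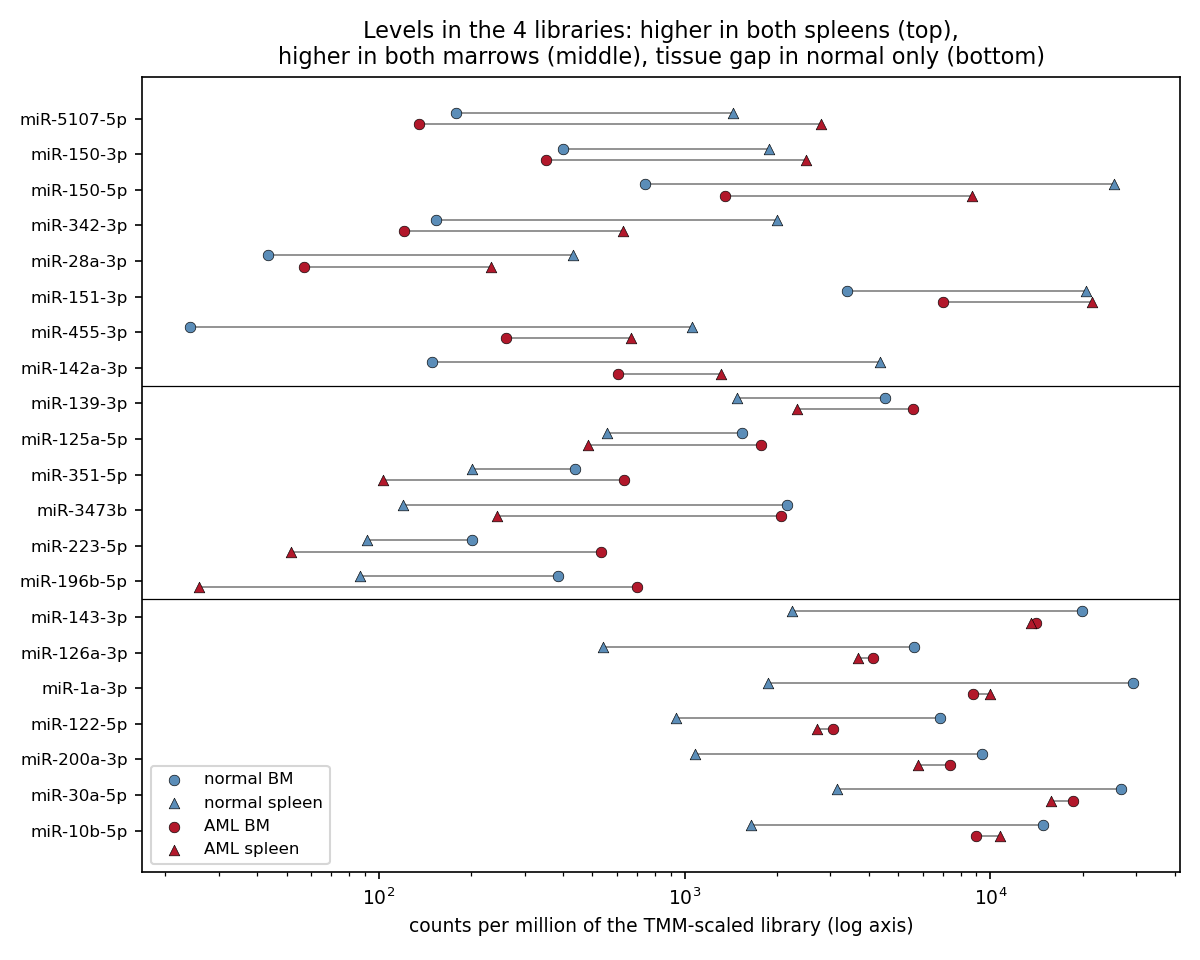
CPM on a log axis for selected miRNAs in the 4 libraries, 1 library per symbol, with circles for BM, triangles for spleen, blue for normal and red for AML, and a line joining the tissues of 1 state. In the bottom block the red symbols nearly coincide while the blue ones lie far apart, as for miR-143-3p with AML log2 ratio -0.06 and normal log2 ratio -3.15.

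The BM-high differences that remained in AML included miR-196b-5p, miR-223-5p, miR-125a-5p and miR-351-5p. Of 68 miRNAs lower in normal spleen than in normal BM, 12 (17.6%) were also lower in AML spleen. Of the 199 miRNAs compared in both pairs 19.1% were lower in AML spleen, and of all 211 21.3%, so this share is at the level of the background. For 6 of the 12 the ratio was closer to equality in AML than in normal tissue, and for the other 6 it was farther from it. The 12 were selected as still at least 2-fold lower in AML, so they cannot show how common a narrowing was. Over all 68, which were selected on the normal ratio, the median log2 ratio was -2.55 in normal tissue and -0.17 in AML.

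The HOX-embedded miR-196b-5p, known for high levels in MLL-rearranged leukaemia cells, had 5 counts in AML spleen, 196 in AML BM, 34 in normal spleen and 80 in normal BM. AML BM held the highest level of the 4 libraries and AML spleen the lowest. The log2 ratio of -4.75 [-6.39 to -3.51] was the lowest of all 211, and it stood at -2.15 in normal tissue. The gap between the AML and the normal log2 ratio was -2.60 [-4.35 to -1.16]. Its locus, chr6:52230129-52230150 on the minus strand, overlaps an annotated exon of Hoxa9. Reads of transferred leukaemia cells in the sorted macrophages cannot be separated in these files, and their part in this ratio was not tested.

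In the leukaemic blast and HOX-embedded list the AML calls were near the background. Of 8 members compared, miR-196b-5p and miR-125a-5p were lower in AML spleen and the other 6 were neither (median -0.33), where 21.3% of all miRNAs were lower and 64.9% neither. In the normal pair 8 of 8 were lower in spleen, beside 35.5% of all miRNAs. For miR-10b-5p, embedded in the Hoxd cluster, the counts were 2073 in AML spleen and 2522 in AML BM. Its AML ratio was 0.26 [0.17 to 0.34] in log2, beside -3.17 in normal tissue. For miR-10a-5p the log2 ratio was -0.20 and for miR-100-5p 0.34, beside -2.55 and -3.33 in normal tissue. The list held 4.19% of the AML spleen reads and 4.57% of the AML BM reads, against 0.885% and 6.07% in normal spleen and BM.

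The myeloid miR-223-5p had 10 counts in AML spleen, 149 in AML BM, 36 in normal spleen and 42 in normal BM, so AML BM stood above the other libraries. Its log2 ratio was -3.36 [-4.45 to -2.44] in AML and -1.14 in normal tissue. The partner arm miR-223-3p had fewer counts than miR-223-5p in each library, with 4 in AML spleen and 12 in AML BM, and was not compared. Of 4 members compared in the myeloid and pan-haematopoietic list, miR-223-5p was the only lower one. Higher were 2 of the 4 (miR-142a-3p and its repeat miR-142b), and the median was 0.98, beside 13.7% higher and 21.3% lower of all miRNAs. This list held 0.407% of the AML spleen reads and 0.248% of the AML BM reads.

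The seed mates miR-125a-5p and miR-351-5p were both lower in AML spleen. For miR-125a-5p the counts were 93 in AML spleen, 497 in AML BM, 219 in normal spleen and 319 in normal BM. This gave -1.88 [-2.21 to -1.56] in log2 for the AML pair. Its ratio in normal tissue was -1.46, so the tissue gap was of similar size in both states. The ratio of miR-351-5p, with 20 and 178 counts, was -2.61 [-3.36 to -1.94]. It lies at chrX:53053315-53053338, within the span chrX:53048154-53054054 that holds miR-450a-5p and miR-503-5p on the same strand. These were also lower in AML spleen, at -1.74 and -1.18. In normal tissue miR-503-5p stood at 0.73, and miR-450a-5p was under 30 counts in both libraries.

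Further kept miRNAs lower in spleen were miR-3473b and miR-139-3p, the latter from an intron of Pde2a. Counts of 47 and 581 put miR-3473b at -3.09 [-3.55 to -2.66], while miR-139-3p stood at -1.26 [-1.41 to -1.10]. The partner arm miR-139-5p, with 2692 and 7476 counts, stood at -0.93 and so just inside 2-fold. The others were miR-3473e (-2.22), miR-149-3p (-2.12), miR-10a-3p (-1.92), miR-5128 (28 and 115 counts), miR-30f (-1.32) and a predicted miRNA without an established name (3 and 110 counts, -4.66). Called lower in AML spleen but not among the 12 kept was miR-10b-3p, with 0 counts in AML spleen and 39 in AML BM. Its AML BM level was at least 8.94-fold higher with the 0 entered as 3 counts.

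Among the 86 tissue differences called only in the normal pair were 19 of miRNAs known from other cell types. The stromal, endothelial, muscle, liver and gut, and epithelial lists had 21 members compared in both pairs. Of these, 20 were lower in normal spleen than in normal BM, and 19 of the 20 were neither higher nor lower by the call limits in AML. Over all miRNAs of the normal pair 35.5% were lower in spleen. Of all 68 miRNAs lower in normal spleen and compared in both pairs, 51 (75.0%) were neither in AML. The 21 include miR-1b-5p and miR-126b-3p, which repeat the counts of miR-1a-3p and miR-126a-5p. The remaining 1 of the 20, miR-133a-3p, was higher in AML spleen. The median log2 ratio of the 21 was -3.16 in the normal pair and -0.12 in the AML pair.

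These lists' summed reads showed the same pattern. The 33 members in the table made up 13.2% of normal BM reads and 1.11% of normal spleen reads, but 6.55% of AML BM and 6.70% of AML spleen reads. In AML both libraries thus lay between the normal ones. Within the AML pair the lists lay close, with summed shares in AML spleen and AML BM of 1.97% and 1.84% for stromal and 0.449% and 0.517% for endothelial miRNAs. Those of muscle miRNAs were 2.39% in AML spleen and 2.0% in AML BM. They were 0.994% and 1.12% for liver and gut and 0.910% and 1.08% for epithelial miRNAs. What part carried-over RNA or cells of other types had in these reads was not tested.

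Single members show how close the AML libraries lay. The stromal miR-143-3p, expressed in smooth muscle and fibroblasts, had 2616 counts in AML spleen, 3957 in AML BM, 879 in normal spleen and 4124 in normal BM. Its AML log2 ratio of -0.06 [-0.13 to 0.01] includes equality. The endothelial miR-126a-3p stood at -0.17 [-0.30 to -0.03] in AML and -3.37 in normal tissue. For the muscle miR-1a-3p, whose counts the row miR-1b-5p repeats, the log2 ratio was 0.18 [0.10 to 0.27] in AML and -3.96 in normal tissue. The liver miR-122-5p stood at -0.17 [-0.33 to -0.01] and the epithelial miR-200a-3p at -0.36 [-0.46 to -0.25], beside -2.88 and -3.11 in normal tissue. In the epithelial list miR-96-5p was called higher in AML spleen (1.86), from 30 and 12 counts.

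Members of the miR-30 family were lower in normal spleen in 5 of 7 cases, beside 35.5% of all miRNAs, and 7 of 7 were neither in AML (median -0.24), beside 64.9% of all miRNAs. Its member miR-30a-5p stood at -0.24 [-0.30 to -0.17]. The erythroid miR-451a, made by DICER-independent processing, had 355 counts in AML spleen, 323 in AML BM, 186 in normal spleen and 1063 in normal BM. Its log2 ratio was 0.68 [0.45 to 0.90] in AML and -3.43 in normal tissue. Its cluster neighbour miR-144-3p went the other way in AML, at -3.63 [-6.73 to -1.67] from 2 and 36 counts. The erythroid miR-486a-5p and miR-486a-3p stood at 0.13 and 0.11 in AML. Of 5 erythroid list members compared in AML, 1 was lower and 4 were neither (median 0.12), beside 21.3% and 64.9% of all miRNAs. In normal tissue 1 of 4 was higher (miR-486a-5p), 1 lower (miR-451a) and 2 neither, beside 30.8% higher and 35.5% lower of all miRNAs. The list includes miR-486b-3p, which repeats the counts of miR-486a-3p.

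**Figure D3:**
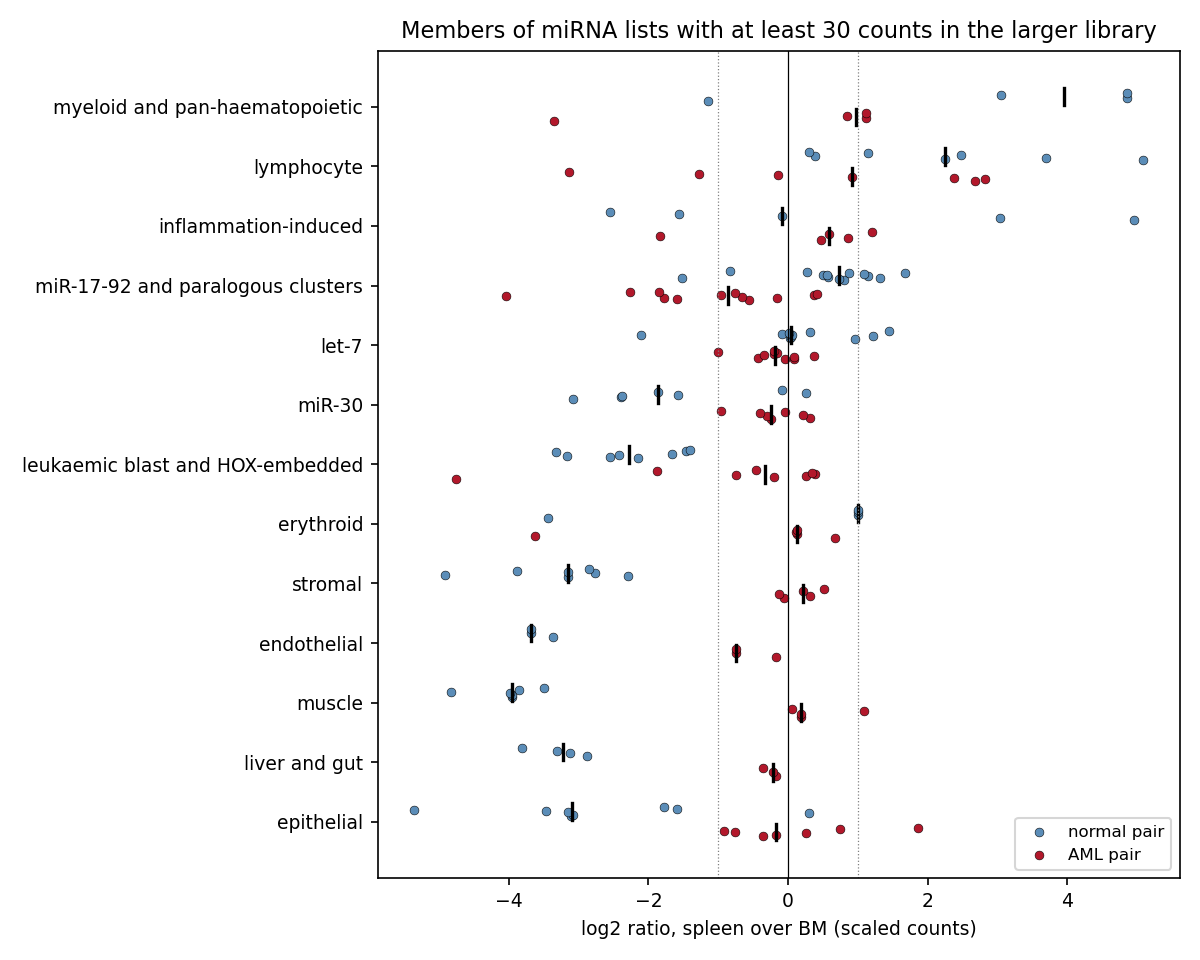
Log2 spleen-to-BM ratios of the members of 13 miRNA lists that had at least 30 counts in the larger library of the pair, blue for the normal pair and red for the AML pair, with black bars at list medians and dotted lines at 2-fold. The red points of the stromal, endothelial, liver and gut lists lie within 2-fold of 0, whereas their blue points lie at or below a log2 ratio of -2.30.

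Of 4 inflammation-linked miRNAs called in the normal pair, 3 were within 2-fold in AML and miR-9-5p was called in the opposite direction. Of all 124 miRNAs called in the normal pair 69.4% were neither in AML, so 3 of 4 is near the background. The inflammation-induced miR-155-5p had 95 counts in AML spleen, 100 in AML BM, 824 in normal spleen and 14 in normal BM, with an AML log2 ratio of 0.47 [0.04 to 0.89] against 4.96 in normal tissue. For miR-146a-5p, which dampens NF-kB signalling, 807 and 648 counts gave 0.86 [0.70 to 1.01] in AML, against 3.03 in normal tissue. The abundant miR-21a-5p, with 6877 and 6637 counts, stood at 0.59 [0.54 to 0.64], whereas it was lower in normal spleen at -1.56. Of 5 members compared in this list, miR-9-5p was higher in AML spleen, miR-146b-5p was lower and 3 were neither, with a median of 0.59, where 35.1% of all miRNAs were called. In the list of miRNAs linked to alternative macrophage activation, 1 of 4 was higher in AML spleen, beside 13.7% of all miRNAs (miR-34a-5p, 1.37 [0.66 to 2.11] from 48 and 27 counts). Its member miR-378a-3p stood at 0.03.

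Differences present in AML and not called in normal tissue were mostly lower in spleen, 21 of 24, where lower calls made up 38 of all 62 AML calls among miRNAs compared in both pairs. They included miRNAs of the miR-17~92 cluster and its relatives, which promote cell proliferation. In that list 5 of 12 members were lower in AML spleen and the other 7 were neither (median -0.86), beside 21.3% and 64.9% of all miRNAs, whereas 4 of 13 were higher and 1 lower in normal spleen, beside 30.8% and 35.5% of all miRNAs. The reads of this list made up 7.19% of AML spleen and 11.1% of AML BM. For miR-92a-1-5p the counts were 3 in AML spleen, 72 in AML BM, 48 in normal spleen and 18 in normal BM. The AML ratio was -4.05 [-6.36 to -2.44] in log2. For miR-25-5p they were 130, 683, 677 and 297 in the same order, which gave -1.85 [-2.14 to -1.58] in AML. In both cases the CPM was lowest in AML spleen. Lower too were miR-363-3p (-2.27), miR-17-3p (-1.59) and miR-18a-3p (-1.78), the last of which was higher in normal spleen. Of these, miR-92a-1-5p, miR-25-5p and miR-17-3p had fewer reads than their partner arms in both AML libraries. Those partner arms were neither, at -0.66 (miR-92a-3p), -0.76 (miR-25-3p) and -0.57 (miR-17-5p). Reads of miR-92a-3p are pooled over a locus on chr14 and another on chrX, so they are not of the miR-92a-1 hairpin alone. The rest of the 7 were miR-20a-5p (-0.16), miR-93-5p (0.41), miR-106b-5p (0.37) and miR-106b-3p (-0.97).

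Other miRNAs called in the AML pair only were miR-181d-5p, miR-146b-5p, miR-130b-5p, miR-222-3p and miR-128-3p. The log2 ratio was -1.88 [-2.30 to -1.47] for miR-130b-5p, -1.51 [-1.70 to -1.33] for miR-222-3p and -1.20 for miR-128-3p. The abundant let-7i-5p, with 4758 and 13835 counts, lay at the 2-fold limit [-1.05 to -0.95], and its call ended on total counts (-0.95). The other 9 members of the let-7 list were neither, beside 64.9% of all miRNAs, and the list median was -0.18. The 3 miRNAs higher in AML spleen were miR-1941-5p (1.38), miR-34a-5p (1.37) and miR-1843b-5p (1.22).

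Members of 1 seed family did not always share a tissue ratio in AML. Among the 178 miRNAs with a RefSeq sequence, 20 groups of 2 or more shared bases 2 to 8, with 57 members in all. Compared miRNAs without a sequence are in no group, so some groups lack members. In 12 of the 20 groups no member was called, and none of the 20 had a call in each direction. The widest range was in the miR-181 family, whose log2 ratios were -0.14 [-0.19 to -0.10] for miR-181a-5p, -1.27 [-1.47 to -1.08] for miR-181b-5p and -3.14 [-3.74 to -2.59] for miR-181d-5p. As the sequences above show, they have the same seed, and miR-181b-5p and miR-181d-5p differ at 1 of 23 aligned bases. Reads of such close copies can be assigned to either, so their separate levels are uncertain.

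In the miR-146 family the counts of miR-146a-5p in AML spleen and BM were 807 and 648, and those of miR-146b-5p were 104 and 539. The former was thus slightly higher in spleen and the latter lower, at -1.83 [-2.15 to -1.53]. The difference between both log2 ratios, which does not depend on the scaling, was 2.69 [2.35 to 3.04]. The sequences differ at 2 of 22 bases. For miR-125a-5p and miR-125b-5p (-0.46) the difference was -1.42 [-1.91 to -0.93]. By contrast, miR-92a-3p and miR-25-3p differed by 0.10 [-0.06 to 0.26], an interval that includes equality. Of the other compared members with that seed, miR-363-3p stood at -2.27 and miR-92b-3p at -0.46.

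The arms of 1 hairpin also differed. Of 39 hairpins with both arms compared, 13 had arms whose AML ratios were more than 2-fold apart with an interval that excluded equality, 4 had both arms called in 1 direction and 2 had arms called in opposite directions. Not among the 13 is miR-10b, which has no point value for the gap because its 3p arm had 0 counts in AML spleen, but whose gap interval starts at 3.05. Some arms, such as miR-92a-3p, come from more than 1 locus, so their reads are pooled over hairpins. The 2 hairpins with opposite calls were miR-185 and miR-151. For miR-185 the 5p arm made up 94.5% of both arms' reads in AML spleen and 72.2% in AML BM, against 74.4% and 97.8% in normal spleen and BM. Its arms stood at 1.05 (5p) and -1.67 (3p), the latter from 8 and 37 counts. For miR-151 the 5p arm made up 0.696% in AML spleen and 4.28% in AML BM, and 0.470% and 3.55% in normal spleen and BM. The direction of its arm balance between tissues was thus the same in both states, while that of miR-185 was not. The call of miR-151-5p, at -1.06, ended on totals without the 10 most abundant miRNAs (-0.99).

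**Figure D4:**
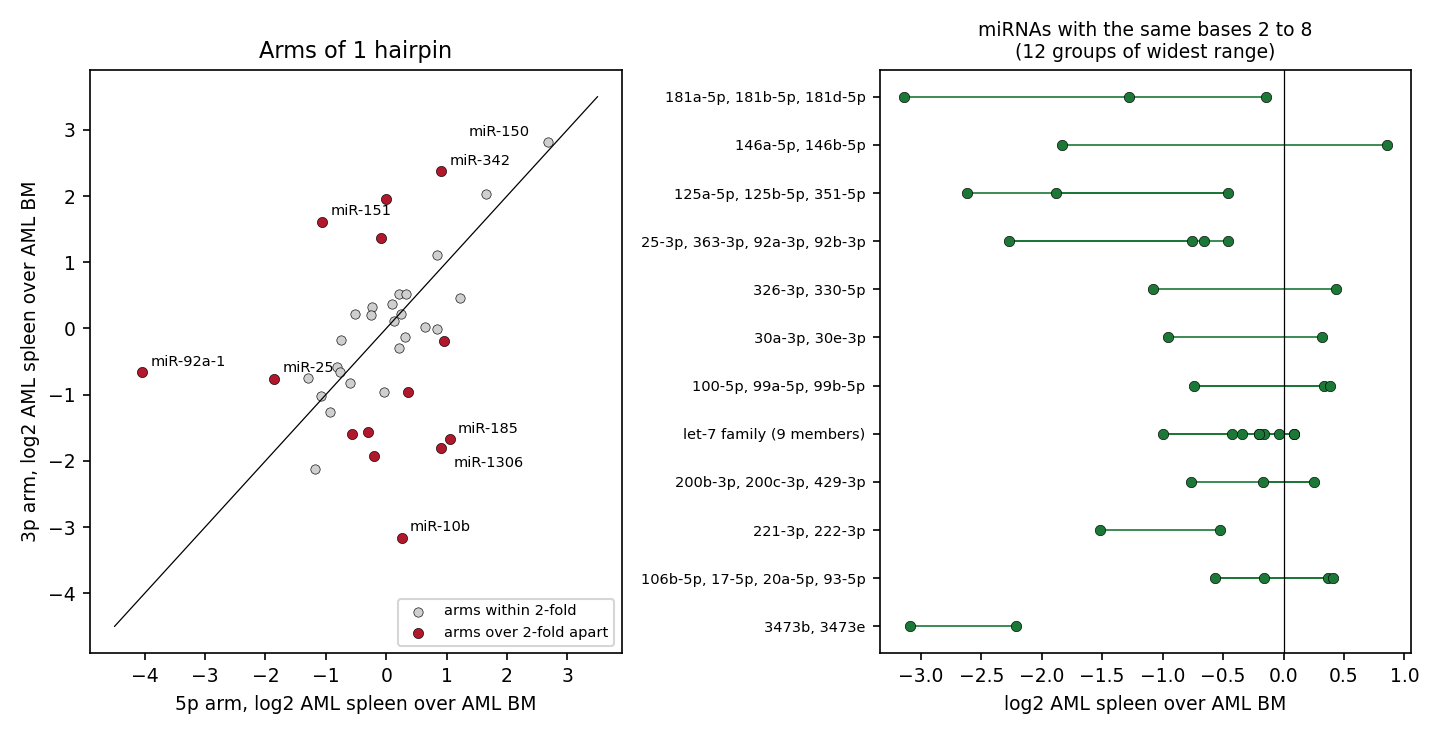
Left, log2 AML spleen-to-BM ratios of the 5p arm (x axis) and the 3p arm (y axis) of 39 hairpins, with the line of equality, red where the arms are over 2-fold apart. The miR-10b point has its 3p arm at 0 counts in AML spleen, drawn as 3 counts. Right, the same ratio for members of the 12 seed groups of widest range, where miR-181d-5p and miR-146b-5p lie far left of their seed mates.

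Over the 178 miRNAs with a sequence, Pearson's r of the AML ratio across miRNAs was -0.0082 with GC content and 0.015 with length, given as a description of miRNAs that share 2 libraries. In an additive model with tissue and state over all 4 libraries, edgeR's quasi-likelihood test called 0 of 246 miRNAs for tissue after Benjamini-Hochberg adjustment (smallest adjusted p 0.606), 15 had an unadjusted p under 0.05, limma called 0 and DESeq2 12. That model counts a tissue difference that differs between AML and normal mice as noise. At the 2-fold limit, let-7i-5p, miR-330-3p (-1.02) and miR-127-3p (1.04) lay just inside. On the other side lay miR-744-5p (-0.99), miR-186-5p (0.99) and miR-106b-3p (-0.97).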

How the data were processed

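Per the labels' protocols, total RNA of sorted macrophages was made into miRNA libraries for an Illumina HiSeq instrument. The deposited table gives read counts and TPM values per miRNA for the 4 libraries, per the file headers. Each deposited TPM equalled the count per 1000000 counts of its library. For the authors' aligner, counter, build and miRNA annotation, the name and version are not given in these sources.

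Analysis started from the counts. Libraries were scaled with TMM factors over all 847 rows (edgeR 4.0.16, R 4.3.3). Ratios have 95% exact conditional (Clopper-Pearson) intervals. Differences between ratios have exact conditional intervals of the odds ratio (scipy 1.17.1). A call needed a larger count of at least 30, a ratio of at least 2 or at most 0.5 and an interval off equality. A count of 0 entered as 3 counts, which is 15.5 CPM in AML spleen and 10.7 CPM in AML BM. Of rows with at least 100 counts in all, 7 groups repeat each other's counts within 3% or 2 counts. All rows were kept, and 1 alternative collapsed them. The additive model used edgeR's quasi-likelihood test, with DESeq2 1.42.0 and limma 3.58.1 as alternatives. Scripts were tested on simulated data. Loci and hosts come from RefSeq GRCm38.p6 and GENCODE M21.

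Members and the 21 miRNA lists were chosen with earlier results of these data known. Named miRNAs are list members, the 12 highest and 12 lowest called ratios with at least 100 counts, the 10 most abundant of either AML library, opposite calls, zeros and rows next to the limits. The other miRNAs named, and those under 30 counts, were chosen after their values were seen.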

Additional observations from a re-analysis of the deposited data

Results flagged for a closer look

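For 10 miRNAs the spleen-to-BM difference was called in opposite directions in AML and in normal mice. These are single libraries, so the difference between the states was not tested, and the values below are AML minus normal log2 ratios. Higher in AML spleen than in AML BM but lower in normal spleen were miR-6538 (5.23), miR-133a-3p (5.08), miR-9-5p (3.75), miR-881-3p (3.70) and miR-127-3p (2.98). For the muscle miRNA miR-133a-3p the counts were 189 in AML spleen, 129 in AML BM, 40 in normal spleen and 335 in normal BM. For miR-127-3p, of the imprinted Dlk1-Dio3 region, they were 176, 124, 74 and 150 in the same order. Lower in AML spleen but higher in normal spleen were miR-181b-5p (-2.42), miR-664-5p (-2.79), miR-1306-3p (-2.95), miR-18a-3p (-3.10) and miR-185-3p (-6.57). The last rests on few reads, 8 in AML spleen and 2 in normal BM. On total counts miR-181b-5p, miR-664-5p and miR-1306-3p were no longer called in opposite directions.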

How the results depend on the processing

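Scaling hardly moved the AML pair: all its log2 ratios shifted by -0.03 with DESeq2 size factors, 0.05 on total counts and 0.07 on totals that leave out the top 10 miRNAs, with 75 calls under each. Against TMM, 1, 5 and 7 of the 211 calls differed, and no called ratio reversed. In the normal pair the shifts were 0.24, -0.16 and 0.18, with splits of 86 higher and 78 lower, 59 and 84, and 84 and 78. Between 26 and 30 differences were kept under these scalings, of which 25, 27 and 25 were among the 28. List medians near 0 changed sign for the neural-enriched, the miR-23/27/24 and the miR-221/222/34 lists. With a minimum of 1 count, the calls numbered 141 (AML pair) and 259 (normal pair), 48 were kept, and 200 miRNAs had at least 2-fold different tissue ratios between AML and normal mice, against 123 with 30 counts. With a minimum of 100 counts there were 37 and 96 calls and 14 kept. For tissue over both states, DESeq2 called 12 miRNAs (8 higher, 4 lower). In an alternative chosen after seeing the data, without the stromal, endothelial, muscle, liver, gut and epithelial miRNAs, 72 miRNAs were called in the AML pair and 28 of 104 (26.9%) kept. No paired analysis was possible because each group has 1 library and the labels carry no replicate numbers. Depth limits miRNAs under 30 counts, and no replicate could be left out.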

Other observations

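Some miRNAs stood under the minimum of 30 counts in both AML libraries and so entered no comparison. Of the Dlk1-Dio3 region, miR-434-5p had 26 counts in AML spleen and 2 in AML BM, while miR-379-5p had 14 and 13. The 2 compared members of this region besides miR-370-3p (-0.09), miR-127-3p and miR-381-3p, stood at 1.04 and 1.20. The stromal miR-214-3p had 20 and 7 counts and miR-199b-5p 19 and 18. Of the miR-181 family, miR-181c-5p had 2 counts in AML spleen and 16 in AML BM. The hypoxia-induced miR-210-3p had 11 and 21 counts, and miR-19a-3p of the miR-17~92 cluster had 1 and 15. The miR-23, miR-27 and miR-24 list had 6 of 6 members called neither in AML, between -0.82 and 0.21, where 64.9% of all miRNAs were neither. In the Sfmbt2 intron list 2 of 2 were neither. Of the miR-29 list 2 of 2 were neither. The neural-enriched list had 1 higher (miR-9-5p) and 1 lower (miR-128-3p), and the miR-221/222/34 list 1 higher, 1 lower and 2 neither.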
